A study of Mus musculus with 11 samples.

Results

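The miR-15 and miR-16 miRNAs come from 4 hairpins that lie in 2 neighbouring pairs, Mir15a with Mir16-1 and Mir15b with Mir16-2. They were followed through all 11 libraries of a small RNA sequencing study of mouse embryonic stem cells that differ in DGCR8. The 7 mature miRNAs named miR-15a, miR-15b or miR-16 were taken by name, with both arms and both miR-16 hairpins, out of 1966 listed. The names were picked with earlier results of these libraries known, but no measured value enters the rule. Of the 1966, 730 passed a filter on low counts and were tested, and these included all 7.

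Embryonic stem cells are pluripotent cells derived from the early embryo. DGCR8 binds RNA in the microprocessor, where Drosha, its nuclease, cuts miRNA hairpins out of longer primary transcripts, and E518K is a change of a glutamate in DGCR8 that recurs in Wilms tumours. The induced E518K group held 3 clones (8, 13 and 15), labelled DGCR8 E518K/E518K and transfected with the vector pSB ET iE-FlagDGCR8-E518K. The KO group held 3 libraries of cells labelled DGCR8 -/- and non-transfected, all carrying the number of 1 clone, 261, in their titles, although the series' design text speaks of independent clones for every condition. Which holds is not settled here, and the spread between the KO libraries may be technical. The induced wild-type group held 3 clones (10, 12 and 16), labelled DGCR8 wt/wt and transfected with pSB ET iE-FlagDGCR8-wt. Both transfected genotypes also received pCMV(CAT)-SB100X, the plasmid for a transposase. These 9 libraries had 300 ng/mL doxycycline for 48 h, the KO included. E518K clone 8 and wild-type clone 10 gave 1 library each without doxycycline. All groups carry the same strain label, and the labels do not say which DGCR8 the transfected cells had before transfection or how much DGCR8 protein the vectors made.

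Each hairpin is cut by the microprocessor and then by Dicer into a duplex of a 5p and a 3p arm, of which 1 is usually kept as the guide and the other is mostly degraded. In both pairs the 5p arm is the usual guide. The guides of this family are known for holding back the cell cycle, with cyclins and BCL2 among their known targets, and the human copies of the miR-15a and miR-16-1 hairpins are often deleted in chronic lymphocytic leukaemia. The miR-15a hairpin is known from cultured cells as a poor substrate of the microprocessor, whose cutting is helped by its neighbour miR-16-1 on the same primary transcript. That makes the pair a place where 2 hairpins of 1 transcript can be compared in cells with an altered microprocessor.

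The mature sequences show which reads tell the hairpins apart. They are RefSeq sequences on GRCm38.p6, written 5′ to 3′ with the seed, bases 2 to 8, in capitals.
mmu-miR-15a-5p: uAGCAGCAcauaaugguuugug
mmu-miR-15b-5p: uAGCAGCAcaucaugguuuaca
mmu-miR-16-5p: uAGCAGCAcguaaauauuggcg
mmu-miR-15a-3p: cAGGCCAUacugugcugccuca
mmu-miR-16-1-3p: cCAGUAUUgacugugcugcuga
mmu-miR-15b-3p: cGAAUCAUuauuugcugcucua
mmu-miR-16-2-3p: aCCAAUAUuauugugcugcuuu
The 3 guide arms share the seed AGCAGCA, and each of the 4 3p arms has a seed of its own. miR-15a-5p and miR-15b-5p differ at 4 of 22 positions, and miR-15a-5p and miR-16-5p at 6. The mature miR-16-5p is the same from both miR-16 hairpins, so its counts pool Mir16-1 and Mir16-2, and no source used here says how the authors counted reads that match both places. The 3p arms of these hairpins differ at 10 of 22 positions, so that only they separate Mir16-1 from Mir16-2. All 7 mature miRNAs are 22 bases long, so levels were compared between them without a correction for length; how well each sequence is captured in a library was not measured.

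Mir16-1, Mir15b and Mir16-2 are shown because they place the arms on either side of a loop that differs between them; the mature arms are in capitals, as RefSeq gives them on GRCm38.p6.
Mir16-1: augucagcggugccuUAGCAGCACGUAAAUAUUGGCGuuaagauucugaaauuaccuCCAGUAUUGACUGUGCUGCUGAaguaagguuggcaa
Mir15b: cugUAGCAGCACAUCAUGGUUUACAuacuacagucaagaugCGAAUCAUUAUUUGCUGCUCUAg
Mir16-2: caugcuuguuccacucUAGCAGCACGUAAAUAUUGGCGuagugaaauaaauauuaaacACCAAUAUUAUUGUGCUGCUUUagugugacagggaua
On GRCm38, Mir15a lies at chr14:61632027-61632110 and Mir16-1 at chr14:61631880-61631972, both on the minus strand within the long non-coding RNA gene Dleu2, with 54 bases between them. The GENCODE annotation places both in introns, except that 13 bases of the Mir16-1 hairpin overlap an exon of 1 Dleu2 transcript whose type it marks as to be experimentally tested. Mir15b lies at chr3:69009772-69009835 and Mir16-2 at chr3:69009902-69009996, both on the plus strand in an intron of Smc4, a condensin subunit gene, with 66 bases between them. The predicted folding energies were -37.7 kcal/mol for Mir16-1, -36.5 kcal/mol for Mir16-2 and -19.2 kcal/mol for Mir15b, whose annotated hairpin is shorter (64 bases, against 93 and 95).

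The libraries differed in how many miRNA counts they held. Total counts were from 1050564 to 1797240 in induced E518K, from 166676 to 208846 in KO and from 3394216 to 6128734 in induced wild type, and 264507 in untreated E518K and 1421247 in untreated wild type. Levels below are CPM, that is counts brought to a common library size, after TMM scaling, which fits the libraries to one another on most of their miRNAs. A library with 0 counts was given an upper limit of 6 counts, which stand for 3 small RNAs, since a small RNA seems in most cases to add 2 counts; that limit was 3.93 to 6.05 CPM in induced E518K, 12.8 to 18.3 CPM in KO and 1.11 to 2.94 CPM in induced wild type. It covers counting error only. The defining miRNAs of embryonic stem cells (5, from the cluster that starts with miR-290a) held 2.34% to 3.47% of the counts in induced E518K, 0.0186% to 0.0402% in KO and 4.55% to 6.88% in induced wild type. Of 6 markers of liver, neurons, muscle and blood, 5 were detected in induced E518K (summed share 0.00804% to 0.0136%), 4 in KO (0.0224% to 0.0438%) and 5 in induced wild type (0.00718% to 0.0259%). miR-223-3p, which marks myeloid blood cells, was at 0 everywhere. The 2 markers of primed stem cells, miR-302a-3p and miR-302b-3p, summed to 0.0369% to 0.0507% in induced E518K. Their summed share was 0 in KO and 0.0602% to 0.118% in induced wild type. The part of these shares in the results was not tested, and in bulk libraries fewer cells of a type and less RNA per cell cannot be told apart. The markers are themselves miRNAs, so their shares cannot tell a change of cell type from an effect of DGCR8.

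The 7 miRNAs together held 0.705% ± 0.00413 of the miRNA counts in induced E518K, 0.134% ± 0.0136 in KO and 0.305% ± 0.102 in induced wild type (SD, n = 3 each). The mean excess of E518K over wild type lay in 1 passenger arm, miR-16-1-3p. Without it the shares were 0.158% ± 0.0877 in E518K, 0.00439% ± 0.00303 in KO and 0.161% ± 0.0907 in wild type. The order of mean levels in induced wild type was miR-16-1-3p, miR-16-5p, miR-15b-5p, miR-15b-3p, miR-15a-5p, miR-16-2-3p and miR-15a-3p. In that order miR-16-1-3p (1709 to 2584 CPM) and miR-16-5p (1450 to 2414 CPM) overlapped, as did miR-15b-3p (69.2 to 88.6 CPM) with miR-15a-5p (39.3 to 73.8 CPM) and miR-15a-5p with miR-16-2-3p (27.5 to 41.3 CPM). In induced E518K the order was miR-16-1-3p, miR-16-5p, miR-15b-5p, miR-16-2-3p, miR-15b-3p, miR-15a-5p and miR-15a-3p, with no overlap between the first 3 and overlap of miR-15b-5p (40.3 to 56.6 CPM) with miR-16-2-3p (20.2 to 44.9 CPM), of miR-16-2-3p with miR-15b-3p (4.03 to 22.3 CPM) and of miR-15b-3p with miR-15a-5p (3.33 to 7.85 CPM).

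**Figure D1:**
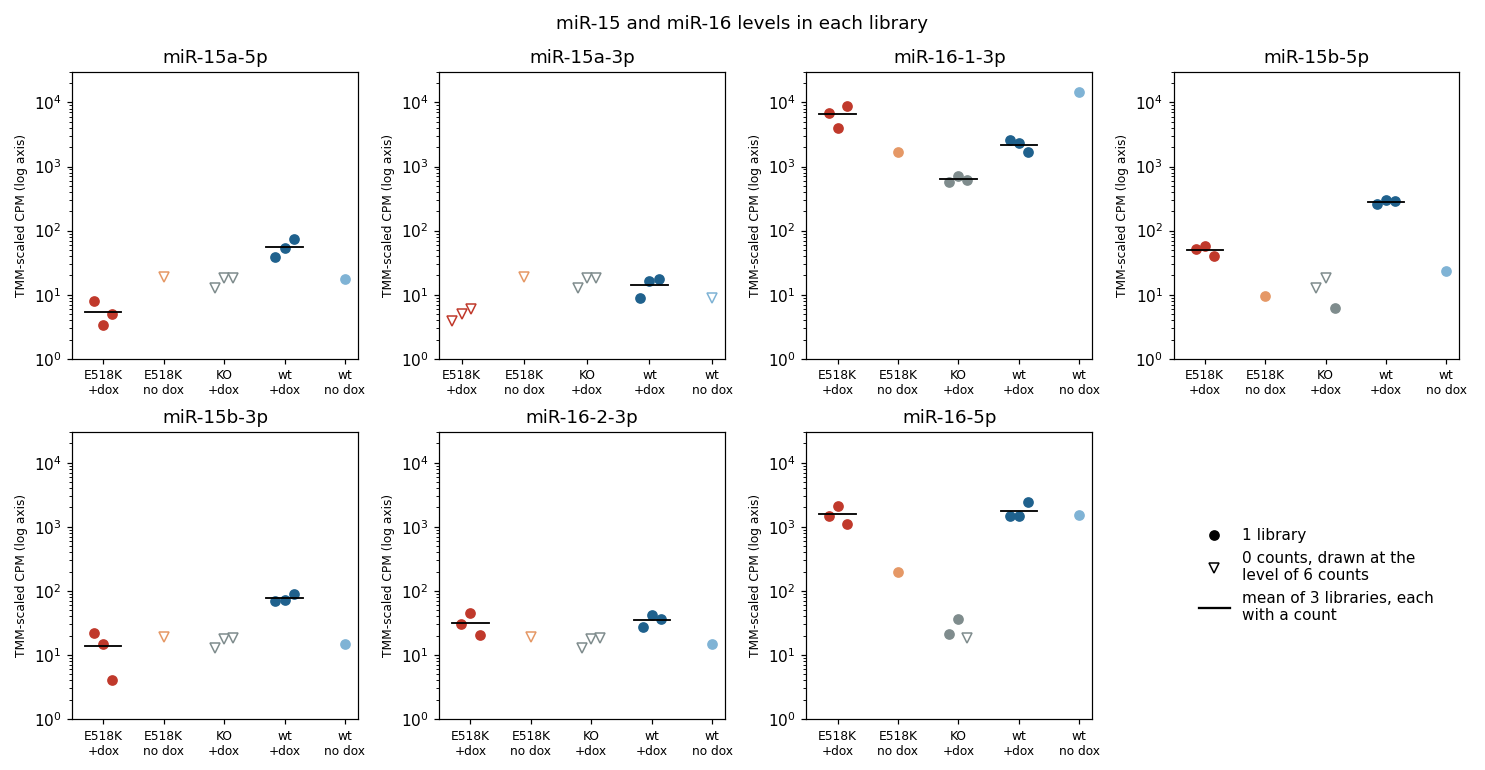
TMM-scaled CPM (log axis) of each mature miRNA in each library, with 1 panel a miRNA; open triangles mark libraries with 0 counts, drawn at the level of 6 counts, and lines are means of 3 libraries. miR-15a-5p in induced E518K (3.33 to 7.85 CPM) lies below induced wild type (39.3 to 73.8 CPM), while miR-16-1-3p in induced E518K (3923 to 8850 CPM) lies above it (1709 to 2584 CPM). The miR-15a-5p values of E518K clones 13 and 15 rest on 4 and 5 counts.

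The first comparison asked how E518K differs from wild-type DGCR8 for these hairpins, both induced. Of the 7 miRNAs, 4 were lower in E518K (both arms of miR-15a and of miR-15b), 1 was higher (miR-16-1-3p) and 2 did not pass the test (miR-16-5p and miR-16-2-3p). Over all 730 miRNAs tested, 35.3% were lower and 28.2% higher, with a median log2 change of -0.14. Both arms of miR-15a passed the count filter only through wild-type libraries, so for them a lower value was the likely outcome. Adjusted p-values are from edgeR's quasi-likelihood test with Benjamini-Hochberg adjustment over all 730, and the spread was estimated over all 5 groups together.

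miR-15a-5p, the guide of the poor hairpin, had 12, 4 and 5 counts in induced E518K clones 8, 13 and 15 (7.85, 3.33 and 5.04 CPM), against 80, 179 and 398 counts in induced wild-type clones 10, 12 and 16 (39.3, 54.4 and 73.8 CPM). The groups did not overlap, and even the highest E518K clone was well under the lowest wild-type clone. The means were 5.41 ± 2.29 CPM in E518K and 55.8 ± 17.3 CPM in wild type (SD, n = 3 each), a log2 change of -3.32 ± 0.58 (SE, edgeR adjusted p = 7.8e-08). Without wild-type clone 16, which had the highest value, it was -2.40 and still passed. The passenger arm miR-15a-3p had 0 counts in all 3 E518K clones, against 18, 53 and 94 counts in wild-type clones 10, 12 and 16. At the limit that 0 counts allow, it was at least 2.83-fold lower in E518K (wild-type mean 14.1 ± 4.63 CPM, SD, n = 3, edgeR adjusted p = 6.3e-07).

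The neighbour moved the other way. miR-16-1-3p, the passenger arm of Mir16-1, had 6769, 3923 and 8850 CPM in induced E518K clones 8, 13 and 15, against 2584, 2299 and 1709 CPM in induced wild-type clones 10, 12 and 16. Every E518K clone was above every wild-type clone. The means were 6514 ± 2473 CPM in E518K and 2197 ± 447 CPM in wild type (SD, n = 3 each), a log2 change of 1.57 ± 0.38 (edgeR adjusted p = 0.00013), which was 2.20 without wild-type clone 16. Its direction depends on the scaling: when libraries were scaled to 13 miRNAs held not to need DGCR8 the log2 change was -1.18 (edgeR adjusted p = 0.0026), a scaling that moved the median of all miRNAs to -2.90. Those 13 held 0.902% to 1.63% of the counts in E518K and 0.104% to 0.180% in wild type. The miR-16-1-3p change lay above the median of all miRNAs under both scalings.

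The second pair, in Smc4, showed lower miR-15b and no called change of its neighbour. miR-15b-5p had 51.1, 56.6 and 40.3 CPM in E518K clones 8, 13 and 15, against 258, 302 and 286 CPM in wild-type clones 10, 12 and 16. The groups did not overlap, and both varied little after TMM scaling. Before it, as shares of all miRNA counts, the spread was wider, with 45.4 ± 18.4 unscaled CPM in E518K and 192 ± 58.9 unscaled CPM in wild type. The means were 49.3 ± 8.27 CPM in E518K and 282 ± 22.3 CPM in wild type (SD, n = 3 each), a log2 change of -2.51 ± 0.46 (edgeR adjusted p = 2.4e-07). The other arm, miR-15b-3p, had 22.3, 15.0 and 4.03 CPM in E518K clones 8, 13 and 15, against 69.2, 73.2 and 88.6 CPM in wild-type clones 10, 12 and 16, and fell by 2.44 ± 0.52 on the log2 scale (edgeR adjusted p = 1.3e-05). Without wild-type clone 16 the log2 changes were -1.82 for miR-15b-5p and -1.72 for miR-15b-3p, both still called. Scaled to the 13 miRNAs, the log2 changes were -6.10 for miR-15a-5p, -5.29 for miR-15b-5p and -5.22 for miR-15b-3p.

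miR-16-2-3p, the passenger arm of Mir16-2, had 30.1, 44.9 and 20.2 CPM in E518K clones 8, 13 and 15, against 27.5, 41.3 and 36.2 CPM in wild-type clones 10, 12 and 16. The groups overlapped, with the highest and the lowest value both in E518K. The log2 change was -0.14 ± 0.49 (95% interval -1.10 to 0.82, edgeR adjusted p = 0.81). The pooled guide miR-16-5p had 1473, 2103 and 1124 CPM in E518K clones 8, 13 and 15, against 1471, 1450 and 2414 CPM in wild-type clones 10, 12 and 16. These groups overlapped as well, with a log2 change of -0.18 ± 0.38 (95% interval -0.92 to 0.56, edgeR adjusted p = 0.68). Neither value shows that the level was the same. Both changed sign with total counts (0.33 for miR-16-2-3p and 0.20 for miR-16-5p), and both were lower and called when scaled to the 13 miRNAs (-2.93 and -2.97).

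**Figure D2:**
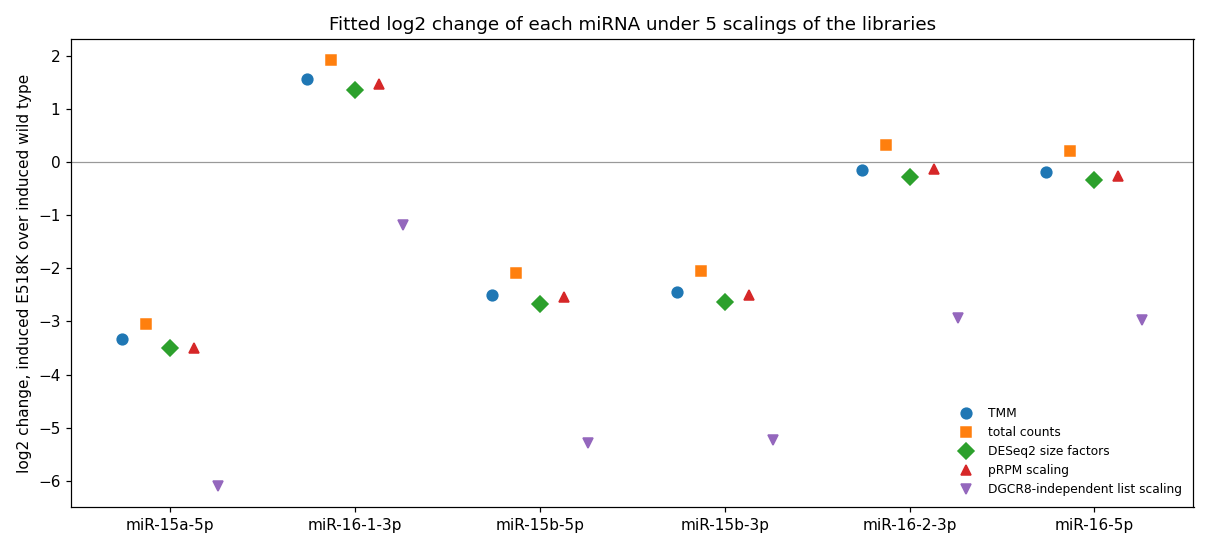
Fitted log2 change of 6 miRNAs, induced E518K over induced wild type, with 1 marker for each of 5 ways to scale the libraries; miR-15a-3p, at 0 in all E518K clones, is not drawn. miR-15a-5p and both arms of miR-15b lie below 0 under all 5, while miR-16-1-3p lies at 1.57 with TMM and at -1.18 with the scaling to 13 miRNAs held not to need DGCR8.

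Ratios of 2 miRNAs within a library do not depend on how libraries are scaled, and 8 were compared by exact two-sided permutation tests. With 3 against 3 libraries no such exact test can go below p = 0.1, which after adjustment over the 8 ratios is 0.16, so none could pass 0.05. For each count of miR-15a-5p (1 added to both), induced E518K clones 8, 13 and 15 had 796, 943 and 1464 counts of miR-16-1-3p, against 65.0, 42.1 and 23.1 in induced wild-type clones 10, 12 and 16. The groups were far apart. The log2 ratio of miR-15a-5p to miR-16-1-3p was -10.01 ± 0.45 in the E518K clones and -5.32 ± 0.75 in wild-type clones (SD, n = 3 each), so that the ratio was 25.9-fold lower in E518K (exact permutation p = 0.1, adjusted 0.16). Leaving out 1 library at a time gave differences from -5.05 to -4.30 on the log2 scale. The E518K values rest on 12, 4 and 5 counts of miR-15a-5p, and with 6 added to each count in place of 1 the log2 difference was -3.96. miR-16-1-3p itself held 1296 ± 106 unscaled CPM in KO and 1446 ± 183 unscaled CPM in induced wild type (SD, n = 3 each). How well it reports the cutting of Mir16-1 was not tested.

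The pair in Smc4 moved in the same direction by less. The ratio of miR-15b-5p to miR-16-2-3p was 1.68, 1.25 and 1.95 in E518K clones 8, 13 and 15, against 9.23, 7.26 and 7.88 in wild-type clones 10, 12 and 16. The ratio was 5.04-fold lower in E518K, with log2 values of 0.68 ± 0.32 in the E518K clones and 3.01 ± 0.18 in wild-type clones (SD, n = 3 each, exact permutation p = 0.1, adjusted 0.16). The test of the difference between the pairs, as a ratio of the 2 ratios, gave a log2 difference of -2.36, or 5.14-fold, again with groups that did not overlap (exact permutation p = 0.1, adjusted 0.16). With 6 added to each count it was -1.61. By its make-up, this difference is that of miR-15a-5p over miR-15b-5p (-0.68) less that of miR-16-1-3p over miR-16-2-3p (1.68). The larger part thus lay in the passenger arms of the miR-16 hairpins, and the groups overlapped for each of these 2 ratios. It does not by itself show that miR-15a fell by more than miR-15b. The guides themselves, which share arm and seed, did not separate the groups: miR-15a-5p over miR-15b-5p differed by -0.68 on the log2 scale, E518K minus wild type, with overlapping groups (exact permutation p = 0.2, adjusted 0.23). It was -0.058 with 6 added to each count. With both arms of each hairpin summed it was -0.98, and the groups then did not overlap (exact permutation p = 0.1, the smallest possible).

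Set against the pooled guide, miR-15a-5p was 7.98-fold lower in E518K, with 173, 506 and 186 counts of miR-16-5p for each count of miR-15a-5p in clones 8, 13 and 15, against 37.0, 26.5 and 32.6 in wild-type clones 10, 12 and 16 (exact permutation p = 0.1, adjusted 0.16). The log2 difference was -2.997, and -2.27 with 6 added to each count. No such ratio was formed for miR-15b-5p, which was lower as well (fitted log2 change -2.51, against -0.18 for miR-16-5p). A fall against the pooled guide is therefore not particular to miR-15a. The passenger arms of the miR-16 hairpins overlapped between groups: for each count of miR-16-2-3p there were 220, 85.8 and 418 counts of miR-16-1-3p in E518K, against 92.4, 55.3 and 47.0 in wild type (log2 difference 1.68, exact permutation p = 0.2, adjusted 0.23). Within hairpins, the log2 ratio of 5p to 3p was 2.02 ± 0.94 in E518K clones and 1.87 ± 0.17 in wild-type clones for miR-15b (SD, n = 3 each, difference 0.15, exact permutation p = 0.9). For miR-15a it was 2.87 ± 0.73 in E518K and 1.97 ± 0.20 in wild type, but with 0 counts of the 3p arm in E518K this value is set by the pseudocount, and its difference of 0.90 became -0.77 when 6 was added in place of 1.

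**Figure D3:**
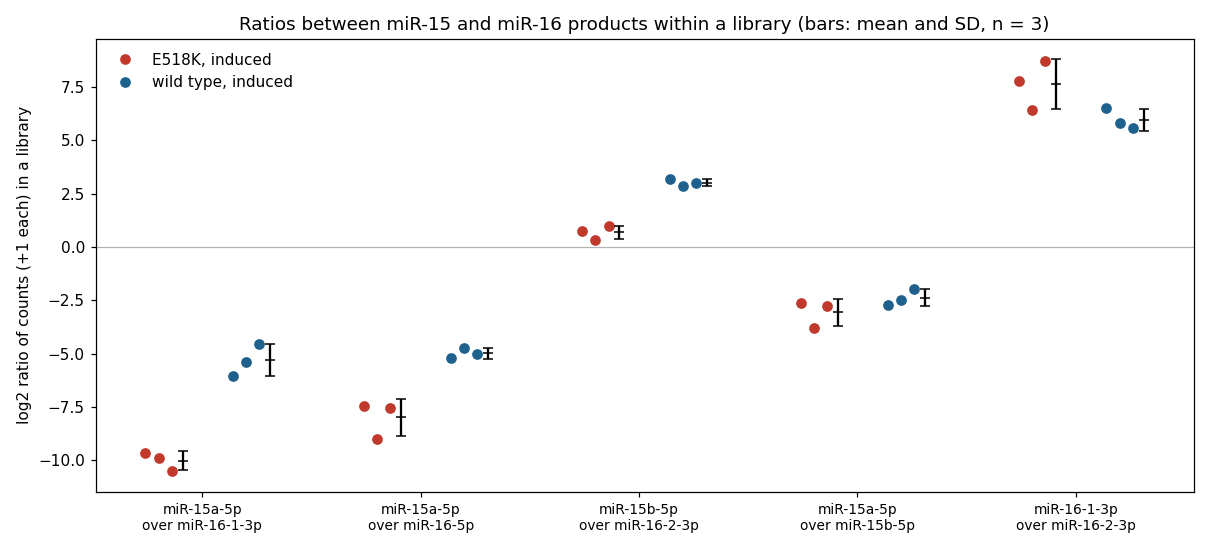
Log2 ratio of 2 miRNAs within a library, with 1 added to each count, for induced E518K (left of each pair) and induced wild-type clones; bars are means and SD of 3 clones. E518K and wild type are apart for miR-15a-5p over miR-16-1-3p, miR-15a-5p over miR-16-5p and miR-15b-5p over miR-16-2-3p, and overlap for the other two.

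miR-16-1-3p stood out among the 3p arms by its amount, since a passenger arm is usually scarcer than its guide. For each count of miR-16-5p, induced E518K clones 8, 13 and 15 had 4.59, 1.87 and 7.86 counts of miR-16-1-3p (1 added to both), against wild-type clones 10, 12 and 16 with 1.76, 1.59 and 0.708. This ratio was chosen after its values were seen and is not tested. The reads counted as miR-16-1-3p exceeded those of the pooled guide in 5 of these 6 libraries.

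Neighbouring and paired arms elsewhere in the genome give the scale of these shifts. In 71 pairs of tested hairpins within 1000 bases on 1 strand, each represented by its most abundant arm with 1 place of origin, the log2 ratio differed between E518K and wild type by a median of 1.39 in absolute value, with quartiles of 0.461 and 2.20. The value for Mir16-1 and Mir15a, 4.70, ranked 3 of the 71, and that for Mir15b and Mir16-2, 2.33, ranked 17. In 198 hairpins with both arms tested, the ratio of 3p to 5p shifted by a median of 0.698 in absolute value, with quartiles of 0.330 and 1.36. The shift was 1.70 for Mir16-1 (rank 36), 0.151 for Mir15b (rank 179) and 0.0188 for Mir16-2 (rank 196), where both miR-16 values use the pooled guide. Mir15a is among the 198 but is given no rank here, since its 3p arm had 0 counts in E518K and its shift is set by the pseudocount. These ranks are descriptions, and the pairs within 1 cluster are not independent.

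**Figure D4:**
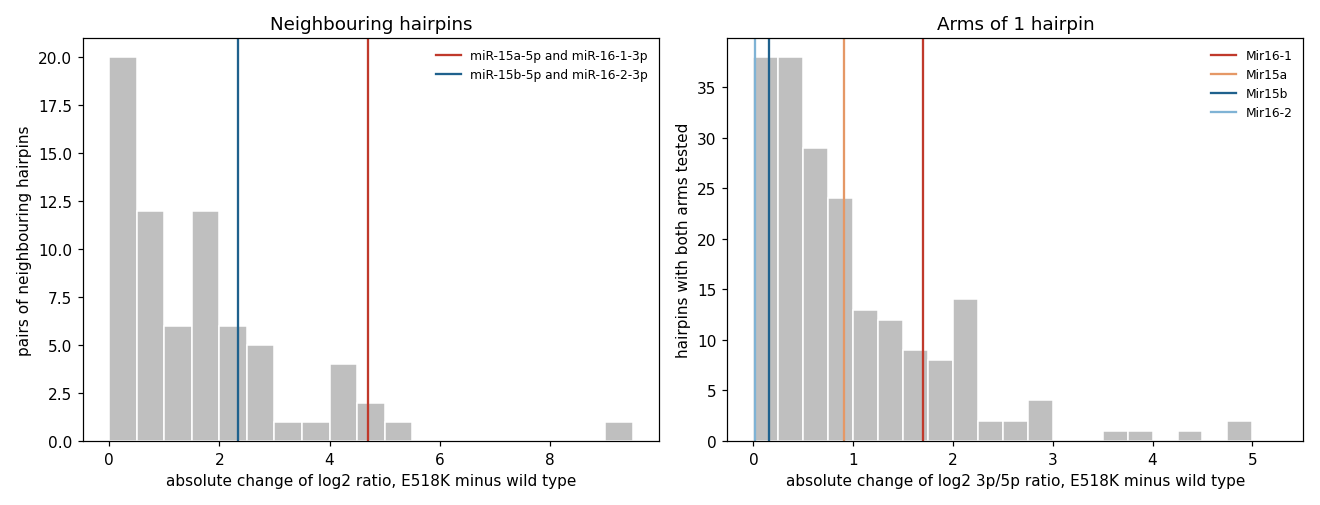
Left, absolute change of the log2 ratio between 71 pairs of neighbouring hairpins, E518K minus wild type; right, absolute change of the log2 ratio of 3p to 5p arms in 198 hairpins. Grey bars count pairs or hairpins, and lines mark the miR-15 and miR-16 hairpins: 4.70 for miR-15a-5p with miR-16-1-3p and 2.33 for miR-15b-5p with miR-16-2-3p on the left, and 1.70 for Mir16-1 on the right. The line of Mir15a on the right is set by the pseudocount and is not a measured shift.

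The second comparison asked what was left of these miRNAs without DGCR8. Against induced wild type, KO had less of all 7, where 58.4% of the 730 miRNAs were lower and 30.0% higher, with a median log2 change of -3.54. In 4 of them (both arms of miR-15a, miR-15b-3p and miR-16-2-3p) every KO library had 0 counts. The count filter passed these 4 through other groups, so for them a lower value was the likely outcome. At the limit for 0 counts, levels in KO were at least 3.41-fold lower for miR-15a-5p, 4.70-fold for miR-15b-3p and 2.14-fold for miR-16-2-3p (edgeR adjusted p from 8.2e-12 to 5.8e-08). The wild-type mean of miR-15a-3p, 14.1 CPM, lay below the mean limit in KO, so no fold is given; its call (edgeR adjusted p = 0.00037) did not hold in DESeq2 (adjusted p = 0.074).

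miR-15b-5p had 0, 0 and 2 counts in KO libraries 1, 2 and 3, against 525, 993 and 1544 counts in induced wild-type clones 10, 12 and 16. As counts in all, scaled and taken as 2 per small RNA, that was 161-fold lower in KO (95% interval 28.9 to 6373, counting error only; edgeR adjusted p = 4.4e-20). miR-16-5p had 10, 12 and 0 counts in KO libraries 1, 2 and 3, against 2997, 4774 and 13022 counts in wild-type clones 10, 12 and 16. It was 99.5-fold lower in KO (95% interval 55.6 to 199, counting error only), and its fitted log2 change was -6.52 ± 0.52 (edgeR adjusted p = 1.4e-30). Leaving out KO library 1 gave -7.31 and leaving out KO library 3 gave -5.37. For miR-15b-5p the fitted log2 change was -7.23 ± 0.75, and it was -6.01 without KO library 2, -6.63 without wild-type clone 12 and -11.85, set by 0 counts, without KO library 3. The size of both changes moved with the scaling, to -4.998 for miR-16-5p and -5.68 for miR-15b-5p with total counts, and to -8.45 and -8.99 with the scaling of the authors' pRPM values.

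miR-16-1-3p behaved differently from the other 6 in that it was well counted in each KO library, with 272, 233 and 201 counts in libraries 1, 2 and 3. That was 580, 700 and 614 CPM in KO, against 2584, 2299 and 1709 CPM in induced wild-type clones 10, 12 and 16. The KO libraries were close together and all below wild type. The means were 631 ± 61.7 CPM in KO and 2197 ± 447 CPM in wild type (SD, n = 3 each), a log2 change of -1.80 ± 0.39 (edgeR adjusted p = 7.5e-06). As a share of all miRNA counts, before TMM scaling, the groups overlapped, with 1296 ± 106 unscaled CPM in KO and 1446 ± 183 unscaled CPM in wild type (SD, n = 3 each).

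The size of the miR-16-1-3p change in KO therefore rests on the scaling. With total counts the log2 change was -0.16 and did not pass (edgeR adjusted p = 0.71); scaled to the 13 miRNAs it was -7.00. It also moved when 1 library was left out, to -2.41 without KO library 1, -1.06 without KO library 2, -1.05 without KO library 3, -1.08 when wild-type clone 10 was left out and -1.11 when clone 12 was, and was called each time. For each count of miR-16-5p, the KO libraries 1, 2 and 3 had 24.8, 18 and 202 counts of miR-16-1-3p (1 added to both).

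The third comparison set induced E518K against KO. Of the 7 miRNAs, 6 were higher in E518K and miR-15a-3p was at 0 in both, where 41.9% of the 730 miRNAs were higher and 26.2% lower, with a median log2 change of 1.35. Those of the 6 at 0 in KO (miR-15a-5p, miR-15b-3p and miR-16-2-3p) could only come out higher. This comparison shares its E518K libraries with the first and its KO libraries with the second, so its values are not independent of theirs. miR-16-5p had 1473, 2103 and 1124 CPM in E518K clones 8, 13 and 15, against 21.3, 36.0 and 0 CPM in KO libraries 1, 2 and 3. It rose by 6.33 ± 0.52 on the log2 scale (edgeR adjusted p = 3.6e-29), and the change was 7.21 without KO library 1, 5.03 without KO library 3, 5.71 without E518K clone 8, 5.42 without clone 13 and 7.46 without clone 15. miR-16-1-3p was higher by 3.37 ± 0.41 (edgeR adjusted p = 7.6e-15), which was 4.03 without KO library 1, 2.66 without library 2 and 2.63 without library 3. With total counts these changes were 5.20 for miR-16-5p and 2.08 for miR-16-1-3p, and with the pRPM scaling 8.19 and 5.09.

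miR-15b-5p was higher in E518K by 4.72 ± 0.82 on the log2 scale (edgeR adjusted p = 4.3e-08), on 2 KO counts, which all came from library 3. Without that library the fitted value was 9.23, set by 0 counts in KO, and without KO library 2 it was 3.41; it was 4.09 without E518K clone 8, 4.01 without clone 13 and 5.70 without clone 15, and 3.59 with total counts. miR-16-2-3p was at least 1.94-fold higher in E518K, at the limit for 0 counts in KO (edgeR adjusted p = 2.8e-07). miR-15a-5p and miR-15b-3p were at 0 in KO and at means of 5.41 ± 2.29 and 13.8 ± 9.17 CPM in E518K (SD, n = 3 each), both below the mean of the KO limits, so no fold is given. The miR-15a-5p call (edgeR adjusted p = 0.011) rests on 21 counts in E518K and was lost with total counts (0.086), without KO library 2 (0.12), without KO library 3 (0.11) and without E518K clone 8 (0.089).

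The design text gives leak from the vectors as the reason for the libraries without doxycycline. Leak and DGCR8 that the cells had before transfection cannot be told apart here, and with 1 library each there is no replicate check. In untreated wild-type clone 10 miR-16-1-3p was at 14576 CPM, above each of the other 10 libraries, while miR-15a-5p was at 17.5 CPM (12 counts), miR-15b-5p at 23.3 CPM (16 counts) and miR-16-5p at 1529 CPM. That library had 769 counts of miR-16-1-3p for each count of miR-15a-5p, just under the 796 to 1464 of induced E518K and above the 23.1 to 65.0 of induced wild type. Its ratio of miR-15b-5p to miR-16-2-3p, 1.55, lay among the E518K values of 1.25 to 1.95 and below the wild-type values of 7.26 to 9.23. In untreated E518K clone 8 miR-16-1-3p was at 1666 CPM, miR-16-5p at 197 CPM and miR-15b-5p at 9.54 CPM (3 counts), and the other 4 miRNAs had 0 counts, which allow up to 19.1 CPM. The KO libraries had 580 to 700 CPM of miR-16-1-3p, 0 to 36.0 CPM of miR-16-5p and 0 to 6.10 CPM of miR-15b-5p.

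Within wild-type clone 10, induction went with 11-fold more miR-15b-5p, 4.74-fold more miR-15b-3p, 2.24-fold more miR-15a-5p and 1.88-fold more miR-16-2-3p, and with 5.64-fold less miR-16-1-3p. Within E518K clone 8, the induced library had 4.06-fold more miR-16-1-3p and 7.47-fold more miR-16-5p than the untreated one. These are single libraries, and no test was made.

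Other miRNAs with the seed AGCAGCA were counted to see whether the guides moved alone. Of 7 listed outside the 7 described here, 4 had 0 counts in every library and 3 were tested. Of the 3, 2 were lower in E518K and all 3 in KO, where 35.3% and 58.4% of all miRNAs tested were lower. Mean counts of miR-195a-5p, miR-322-5p and miR-497a-5p were 52.7, 43 and 70.7 in induced wild type and 2.33, 6.33 and 2.67 in induced E518K. A count filter passes such miRNAs through the group where they are high, so a lower value was the likely outcome. These tallies therefore do not show whether the guides moved alone. All 3 had 0 counts in KO, and the wild-type means of miR-195a-5p and miR-322-5p lay below the mean of the KO limits, so no fold is given for them. The most abundant in wild type, miR-497a-5p, had 6, 0 and 2 counts in E518K clones 8, 13 and 15 and averaged 1.98 ± 1.96 CPM in E518K and 17.7 ± 7.99 CPM in wild type (SD, n = 3 each, log2 change -3.04 ± 0.74, edgeR adjusted p = 0.00013). The next, miR-195a-5p, had 3, 2 and 2 counts there and averaged 1.88 ± 0.19 CPM in E518K and 14.05 ± 5.51 CPM in wild type (log2 change -2.85 ± 0.79, edgeR adjusted p = 0.00076). These counts are at or under the limit of 6, so the size of both changes is uncertain. The third, miR-322-5p, had a log2 change of -1.18 ± 0.67 that did not pass (edgeR adjusted p = 0.11).

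The patterns over the 11 libraries were compared by Pearson's r of log2 CPM, as a description, since libraries of 1 group share its level and low counts share a floor. The 2 products of the Dleu2 pair were weakly alike, with r of 0.212 between miR-15a-5p and miR-16-1-3p. For the Smc4 pair, miR-15b-5p with miR-16-2-3p, r was 0.885. With miR-15a-5p it was 0.678 for the other arm of its hairpin, 0.582 for miR-16-5p and 0.917 for miR-15b-3p from another chromosome. Between miR-16-1-3p and miR-16-5p it was 0.780. The miRNAs most like miR-15a-5p were miR-130b-5p (r = 0.987), miR-196a-5p (0.984) and miR-380-3p (0.979), all with fitted log2 changes between -6.97 and -4.01 in E518K over wild type. Those most like miR-16-1-3p were miR-127-5p (r = 0.968), miR-101c (0.954) and miR-30a-3p (0.939). miR-127-5p, like miR-16-1-3p, was highest in untreated wild type (2170 CPM) and averaged 1824 CPM in induced E518K, 223 CPM in KO and 567 CPM in induced wild type. Both lists were picked on these same libraries, so the shared changes and levels follow in part from that choice.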

How the data were processed

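Small RNA libraries were made from total RNA (peqGold TriFast) of cells grown without feeders in 2i medium with LIF, with the NEBNext Multiplex Small RNA kit, per the labels' protocols. The authors deposited read counts per mature miRNA, not normalized per the file headers, and the same miRNAs scaled to an RPM unit of their own (pRPM). STAR, bedtools and GRCm38.p6 are named in the submitters' processing notes; trimming, counting rule and strand are not given in sources used here. Another deposited file held the same values as the pRPM file and was not used here. The pRPM values were the counts times 1 constant per library, 100% whole within 0.01 reads. The reads recovered from them equalled the deposited counts in 100% of values. The count test on those reads therefore had to repeat the main calls and is no check. Those calls were 464, 645 and 497 miRNAs in the order of the comparisons in the text.

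Groups were taken from sample titles. Counts were tested with edgeR 4.0.16 in R 4.3.3 (robust quasi-likelihood fit of 5 groups and 11 libraries, scaled by TMM; filterByExpr kept a minimum count of 10 and total of 15; threshold 0.05), and the script was tested on simulated data. The single untreated libraries were assumed to vary like the other groups. P-values measure the spread between these libraries, which for KO may be technical. The chi-square of replicate counts was 17.9 to 490 per degree of freedom, above counting noise; this does not tell separate cultures from separate library preparations. Of the counts from 1 to 40, 90.3% were even, the reason for a limit of 6 counts; folds against groups at 0 use the mean limit over the libraries of that group. Ratios were log2 of counts plus 1, tested in scipy 1.17.1. Correlations used log2 CPM with a prior count of 2. Folding used ViennaRNA 2.7.2. Alternatives were total counts, DESeq2 1.42.0 size factors and test, pRPM scaling, scaling to 13 miRNAs held not to need DGCR8, no filter, only the groups compared, pseudocounts of 0.5 and 6, and leaving out each library. Named miRNAs were the 7, their seed relatives and the 3 most like miR-15a-5p and miR-16-1-3p. The members and lists were chosen with earlier results of these data known.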

Additional observations from a re-analysis of the deposited data

Results flagged for a closer look

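miR-16-1-3p and miR-16-5p moved in opposite directions on induction in the 2 clones that were measured both ways, which is what singled them out. On the log2 scale, induced over untreated, miR-16-1-3p changed by 2.02 in E518K clone 8 and by -2.50 in wild-type clone 10, and miR-16-5p by 2.90 in E518K clone 8 and by -0.055 in wild-type clone 10. As raw shares of the miRNA counts the values for miR-16-1-3p were 1.54 and -2.18, and those for miR-16-5p 2.42 and 0.26, so that only miR-16-1-3p kept opposite signs. Each value rests on 1 library against 1, and the difference between the clones was not tested.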

How the results depend on the processing

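Of 442 recomputed values, 423 kept their direction and their side of the threshold, or stayed within 1.5 times the count. Both numbers include the refit on reads recovered from pRPM, which equal the deposited counts, so its values could not differ. Between E518K and wild type the number of the 7 miRNAs called was 5 to 7 over the settings and 5 whichever library was left out; the log2 change of miR-16-1-3p without 1 library was 1.31 to 2.20, and it reversed only in the scaling to 13 miRNAs, to -1.18. miR-16-2-3p and miR-16-5p, not called, turned positive with total counts (0.33 and 0.20), without wild-type clone 16 (0.53 and 0.77) and without E518K clone 15 (0.19 and 0.095); without 1 library they ranged from -0.50 to 0.53 and from -0.53 to 0.77. Calls over all miRNAs were 206 higher and 258 lower, and 12 higher and 498 lower in the scaling to 13 miRNAs; KO against wild type gave 219 and 426, and 26 and 536 in that scaling; E518K against KO gave 306 and 191, 250 and 249 with total counts, and 412 and 30 in that scaling. The median log2 change, E518K over wild type, was -0.14 with TMM, 0.21 with total counts and -2.90 in that scaling. Between E518K and KO only 3 of the 7 were called with those 2 groups alone, where the filter left 411 miRNAs. The ratio of arms reversed for miR-15a with a pseudocount of 6 (-0.77), and for miR-15b with a pseudocount of 6 (-0.22) and without E518K clone 15 (-0.35, within a range of -0.35 to 0.58). The cause was not tested. No paired analysis was possible because the induced groups that were tested against each other share no clone number; the 2 clones measured with and without doxycycline were not fitted together. Depth limits KO values, where 0 counts allow up to 18.3 CPM.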
